A study of Homo sapiens with 6 samples.

Results

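RN7SL1, RN7SL2, RN7SK, RMRP, RPPH1, TERC, SCARNA2 and VTRNA1-1 encode short structured RNAs that work without being translated. These 8 genes were listed by name, with earlier results of these data known, and found among the 60499 Ensembl gene IDs of the deposited tables, which give counts and TPM (transcript abundance corrected for length and scaled to a fixed total) in the same 6 libraries. The cells were H1, a long-established line of human embryonic stem cells, and had 4 days in NutriStem medium. The wells were coated with laminin-521 (LN-521) or with laminin-521 and laminin-221 together (LN-521+LN-221), 3 wells each, each sequenced as its own library from 700 ng of total RNA with a stranded total RNA kit. Both groups therefore share the cell line, the medium and LN-521, and differ by the laminin-221 in the coating. The labels name separate wells of 1 line, so p-values measure the spread between these wells.

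The members belong to several kinds of machinery. RN7SL1 and RN7SL2 are the functional copies of 7SL, the RNA backbone of the signal recognition particle (SRP), which brings ribosomes that make secreted and membrane proteins to the endoplasmic reticulum. RN7SK encodes 7SK, which binds HEXIM proteins and holds the elongation kinase P-TEFb inactive. RMRP is the RNA of RNase MRP, which acts in ribosomal RNA maturation, and RPPH1 is the catalytic RNA of RNase P, which trims the front end of transfer RNA precursors. TERC carries the template that telomerase copies into telomere repeats. SCARNA2 belongs to the small Cajal body RNAs, which guide modification of spliceosomal RNAs. VTRNA1-1 is a vault RNA, part of a large ribonucleoprotein whose shell is built of MVP. 7SL, 7SK, RMRP, RPPH1 and vault RNA are made by RNA polymerase III, while TERC is made by RNA polymerase II.

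The 7SL pair holds most of the signal, and its 2 genes nearly share a sequence. Both lie on chromosome 14 (GENCODE release 29, GRCh38), RN7SL1 on the + strand with 299 bases and RN7SL2 on the - strand with 300 bases. They differ by 4 substitutions and by 1 further base at the 3′ end of RN7SL2, and are 98.3% identical over their alignment, so a read that covers none of these bases fits both. RN7SL1 lies within an intron of RPS29, on the opposite strand. RN7SL3, another annotated locus, is 97.7% identical to RN7SL1, and RN7SL4P and RN7SL5P are 85.8% and 84.8% identical.

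For RMRP and TERC the annotation holds a second gene on the same strand over the same bases, so their reads could be divided between 2 rows of the tables. Sequences here and in the next paragraph are those of GENCODE release 29 (GRCh38), read 5′ to 3′ along each gene's own strand. RMRP is shown as the longer of its 2 annotated genes, 268 bases, with capitals at the 4 bases that lie outside the 264-base model listed under the symbol.
RMRP, chr9:35657751-35658018, - strand: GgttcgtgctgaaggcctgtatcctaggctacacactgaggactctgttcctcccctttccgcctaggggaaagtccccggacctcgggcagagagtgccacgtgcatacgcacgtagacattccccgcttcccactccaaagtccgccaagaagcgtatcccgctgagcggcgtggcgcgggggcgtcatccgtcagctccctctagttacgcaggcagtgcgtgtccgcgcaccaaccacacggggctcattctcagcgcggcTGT
For TERC the stretch from base 16 to base 86 of its 541-base model is printed, because it holds the telomere template, the letters CTAACCCTAAC in capitals at positions 46 to 56.
TERC, chr3:169764975-169765045, - strand: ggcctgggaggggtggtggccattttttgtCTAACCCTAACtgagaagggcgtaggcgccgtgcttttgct
Searched on both strands, these 11 letters or their complement stood in the first 541 bases of 19 of 160436 annotated transcripts of at least that length (0.0118%). The second gene over TERC spans bases 14 to 451 of the model, 438 bases, and so includes the template.

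The first 100 bases of RN7SK are printed with the letters GATC in capitals, since the hairpin at this end of 7SK, where HEXIM1 binds, is known for its GAUC repeats.
RN7SK, chr6:52995620-52995719, + strand: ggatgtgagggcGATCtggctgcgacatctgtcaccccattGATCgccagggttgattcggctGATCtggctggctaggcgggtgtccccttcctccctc
All 3 matches to GATC in the 331-base gene fell in this stretch (the letters read the same on both strands). At least 1 match stood in the first 331 bases of 60.5% of 190374 annotated transcripts and at least 3 in 7.42%, so the match alone describes the letters and no binding. VTRNA1-1 is shown because no count was assigned to it, and it is the shortest member, at 99 bases.
VTRNA1-1, chr5:140711275-140711373, + strand: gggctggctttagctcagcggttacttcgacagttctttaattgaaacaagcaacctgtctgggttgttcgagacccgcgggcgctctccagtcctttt
RPPH1 (chr14:20343075-20343407, - strand, 333 bases) and SCARNA2 (chr1:109100193-109100612, + strand, 420 bases) complete the set.

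Library totals ran from 20606494 to 26836727 counts, all from 1 sequencing batch, and gave 27175 to 28033 genes with a count per library. Each of the 10 fixed markers of pluripotent cells reached at least 10 CPM (counts scaled to a fixed library size) in every library, and their summed level was 10889 to 11043 CPM on LN-521 against 10816 to 11003 CPM on LN-521+LN-221. Within that near-equal sum LIN28A was higher on LN-521+LN-221 and POU5F1, TDGF1 and NANOG were lower, all 4 called by edgeR at an adjusted p under 0.05. Of 15 markers of differentiated cells, 12 stayed under 1 CPM in every library, with COL1A1 and COL1A2, collagen genes of mesenchymal cells, at 144 to 218 CPM and PDGFRA at 4.06 to 6.76 CPM. The summed level of these 15 was 339 to 402 CPM on LN-521 against 362 to 368 CPM on LN-521+LN-221. In bulk RNA, fewer cells of a kind and less RNA per cell cannot be told apart.

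Together the 8 genes took 6.27, 8.05 and 7.23% of all counts in the 3 LN-521 libraries and 6.17, 6.46 and 7.01% in the 3 LN-521+LN-221 libraries. In TPM the same 8 genes took 39.2, 47.3 and 43.4% on LN-521 against 40.7, 41.4 and 42.4% on LN-521+LN-221. LN-521 replicate 2 was highest on both scales, and the ranges of the coatings overlapped on both. The share of counts averaged 7.18 ± 0.891% on LN-521 against 6.54 ± 0.427% on LN-521+LN-221 (SD over n = 3 libraries each), a difference of -0.64 percentage points (exact permutation test over libraries, two-sided, p = 0.3). That difference was -0.204 points without LN-521 replicate 2 and -1.09 points without LN-521 replicate 1. The share of TPM averaged 43.3 ± 4.08% and 41.5 ± 0.853%, a difference of -1.82 points (exact permutation test, two-sided, p = 0.6), which turned to 0.204 points without LN-521 replicate 2. With 3 libraries against 3, the smallest two-sided p is 0.1.

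**Figure D1:**
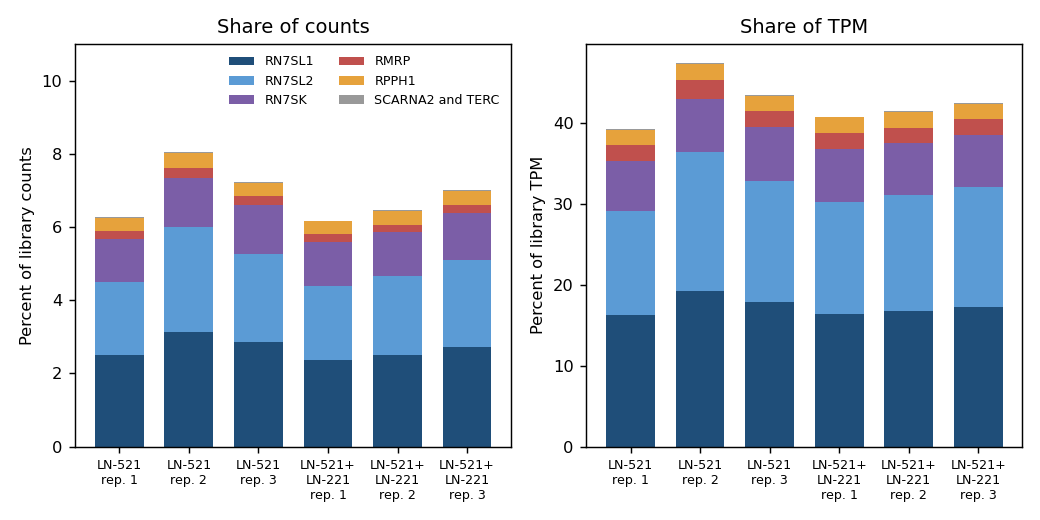
Stacked bars give, for each of the 6 libraries, the percent of all counts (left) and of all TPM (right) held by the 7 detected genes, both axes starting at 0. The stacks reach 6.17 to 8.05% of counts and 39.2 to 47.3% of TPM, most of it RN7SL1 and RN7SL2.

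The 7SL pair held most of this share. RN7SL1 had the highest count and the highest TPM of all genes in every library, and RN7SL2 was next on both scales. The pair took 4.49, 5.99 and 5.27% of counts on LN-521 against 4.40, 4.66 and 5.10% on LN-521+LN-221. In TPM it took 29.1, 36.4 and 32.8% on LN-521 against 30.2, 31.1 and 32.0% on LN-521+LN-221. On both scales the LN-521 libraries spread more widely than the LN-521+LN-221 libraries, and their range held most of the other group's (exact permutation test of the means, two-sided, p = 0.4 for counts and p = 0.6 for TPM). The 678 other annotated 7SL loci, mostly pseudogene copies, together took 0.154, 0.148 and 0.169% of counts on LN-521 against 0.133, 0.132 and 0.138% on LN-521+LN-221. This small remainder did not overlap between the coatings in counts (exact permutation p = 0.1, the smallest this design gives) but did in TPM (p = 0.2).

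The split within the pair varied between libraries despite the near-identical sequence. RN7SL2 held 44.1, 47.6 and 45.9% of the pair's counts on LN-521 against 46.1, 46.1 and 46.5% on LN-521+LN-221, with means of 45.9 ± 1.71% and 46.2 ± 0.200% (SD over n = 3 libraries each; exact permutation test, two-sided, p = 0.7). The lowest and the highest split both came from LN-521, in replicates 1 and 2. Both genes held non-whole counts in all 6 libraries, so reads had been divided between rows by estimation, and values for either gene alone are uncertain.

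Per unit of length, the order of the levels was RN7SL1, RN7SL2, RN7SK, then RMRP and RPPH1, then SCARNA2 and TERC. RN7SL1 was at 163054, 191691 and 178117 TPM on LN-521 against 163463, 167940 and 171930 TPM on LN-521+LN-221. RN7SL2 was at 127917, 172433 and 150068 TPM on LN-521 against 138699, 142705 and 148056 TPM on LN-521+LN-221. The ranges of these genes overlapped over the 6 libraries, although RN7SL1 was the higher in each.

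RN7SK, the P-TEFb inhibitor, ranked 3 by TPM in every library. Its level was 62086, 65136 and 66755 TPM on LN-521 against 65734, 63666 and 64837 TPM on LN-521+LN-221. The LN-521 range enclosed the other group, and the means were within 1 SD. RN7SK took 1.18, 1.34 and 1.34% of counts on LN-521 against 1.20, 1.19 and 1.28% on LN-521+LN-221. The 293 other annotated 7SK loci together took at most 0.00732% of counts in a library.

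The catalytic RNAs came next at nearly the same level. RMRP was at 19572, 23208 and 19909 TPM on LN-521 against 19071, 19203 and 19384 TPM on LN-521+LN-221. RPPH1 was at 18497, 20217 and 18426 TPM on LN-521 against 19252, 19745 and 19008 TPM on LN-521+LN-221. Their ranges overlapped, and RMRP was the higher of the 2 in all but the first and second LN-521+LN-221 libraries.

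For RMRP the 3 LN-521 libraries all lay above the 3 LN-521+LN-221 libraries in TPM (exact permutation test of its TPM share, two-sided, p = 0.1). In percent of counts the groups overlapped, with RMRP at 0.226, 0.277 and 0.234% on LN-521 against 0.203, 0.210 and 0.227% on LN-521+LN-221 (exact permutation p = 0.2). Its second annotated gene held 3117, 6319 and 2851 counts on LN-521 against 1835, 2317 and 5121 on LN-521+LN-221, beside 41744 to 74428 counts on RMRP itself. With both genes summed, the TPM of the coatings overlapped too (2.07, 2.51 and 2.08% of TPM against 1.99, 2.01 and 2.11%, exact permutation p = 0.3).

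SCARNA2 was far lower, at 449, 558 and 464 TPM on LN-521 against 478, 466 and 462 TPM on LN-521+LN-221. Apart from LN-521 replicate 2, these 6 values lay close together. TERC was the lowest detected member, at 31.3, 37.9 and 31.3 TPM on LN-521 against 31.8, 32.5 and 22.0 TPM on LN-521+LN-221. Its counts were 307, 498, 368, 283, 324 and 245 in the same order.

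Most counts at the TERC locus stood on the second gene. That gene held 1531, 1634 and 1349 counts on LN-521 against 1084, 1113 and 1202 on LN-521+LN-221, more than TERC itself in every library. Any TERC level read from the row with its symbol alone therefore covers the smaller part of the locus's counts. RPPH1 and SCARNA2 also share bases with a same-strand gene, but there the second gene held at most 3437 and 101 counts, beside at least 73054 and 2822 on the member.

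**Figure D2:**
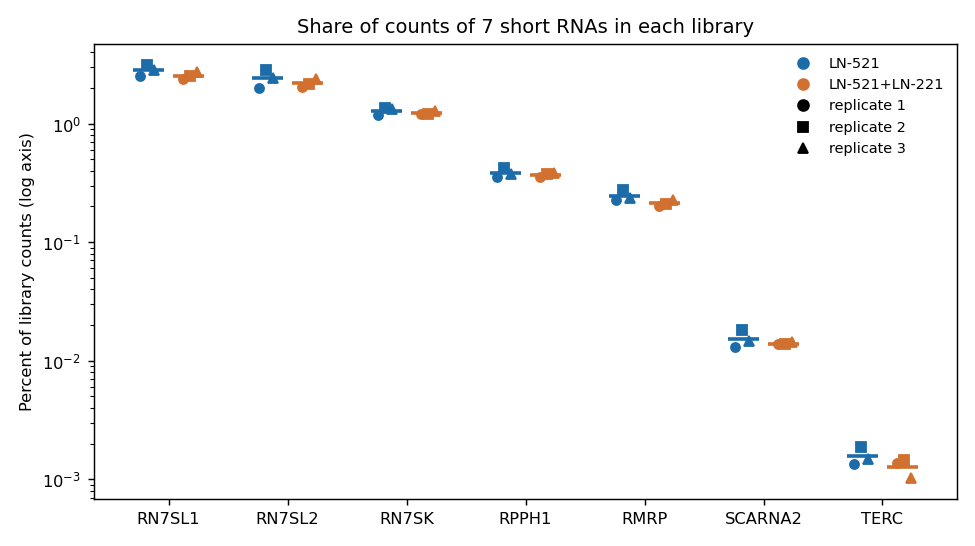
Each point is 1 library's percent of counts (log axis) for 7 of the genes, coloured by coating with the replicate as marker shape, and horizontal lines are means of 3 libraries. The genes span from 3.14% for RN7SL1 down to 0.00102% for TERC, and LN-521 replicate 2 (blue square) is the highest for each.

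VTRNA1-1 was listed at 0 counts and 0 TPM in all 6 libraries. A count of 0 allows up to 3 counts, which is 0.112 to 0.146 CPM at these depths, for counting error only. VTRNA1-2 and VTRNA1-3, the neighbouring vault RNA genes, were also at 0 in every library. The vault proteins were present, with MVP at 9.94 ± 1.50 CPM on LN-521 against 9.81 ± 1.05 CPM on LN-521+LN-221 and TEP1, a vault and telomerase protein, at 31.6 ± 2.18 and 30.1 ± 0.254 CPM (SD over n = 3 libraries each).

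Nearly all annotated genes as short as VTRNA1-1 were listed at 0. Among annotated short-RNA genes, 99.0% of the 976 genes of 60 to 79 bases, 94.5% of the 1133 of 80 to 99 bases and 97.2% of the 2087 of 100 to 119 bases were at 0 in every library. At 250 to 299 and 300 to 349 bases, the lengths of 7SL, RMRP, 7SK and RPPH1, the shares at 0 were 66.2% and 67.6%. Between these lengths the shares had no steady order, with 78.1% at 120 to 139 bases, 84.2% at 140 to 159, 73.4% at 160 to 179, 63.0% at 180 to 199 and 80.4% at 200 to 249. The low values at VTRNA1-1 thus lie in a length range where almost every gene was listed at 0, and whether the cells made vault RNA was not tested by these tables. The length ranges pool several kinds of annotated short RNA, so the part of length alone was not tested. The Y RNAs RNY1 and RNY3, which bind the Ro60 protein and are about as short, had few counts. RNY1 stood at 8.93, 4.70 and 4.90 CPM on LN-521 against 4.38, 3.27 and 6.93 CPM on LN-521+LN-221, and RNY3 at 2.79, 0.714 and 0.562 CPM against 0.578, 0.628 and 1.10 CPM. Both were highest in LN-521 replicate 1. All short-RNA genes under 160 bases together were also highest there, at 169 CPM against 81.3 to 118 in the other 5 libraries.

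The step from 6.17 to 8.05% of counts up to 39.2 to 47.3% of TPM follows from the length each gene is divided by. The ratio of a gene's count to its TPM gives the length used for that gene, up to a constant per library set here from 346 long single-transcript genes. It fell below the annotated length for each of the 7 detected members, in the way of an effective length, which counts only the start positions a fragment can have. The constant implied a mean fragment length of 185 bases in LN-521 replicate 1 and 196 to 200 bases in the other 5 libraries. RMRP, the shortest detected member, was divided by 33.3 to 37.5% of its 264 bases. RN7SL1 was divided by 40.3 to 44.2% of its length, RN7SL2 by 40.5 to 44.4%, RN7SK by 45.8 to 49.3% and RPPH1 by 46.1 to 49.6%. SCARNA2 was divided by 57.0 to 59.9% and TERC by 66.6 to 68.8%. The annotated length was 2.67 to 3.00 times the length used for RMRP, 2.26 to 2.48 times for RN7SL1 and 1.45 to 1.50 times for TERC. The highest of each range of percentages came from LN-521 replicate 1, the library with the shorter implied fragments. Levels of these genes in TPM thus depend on the fragment length set for the library as well as on their counts.

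**Figure D3:**
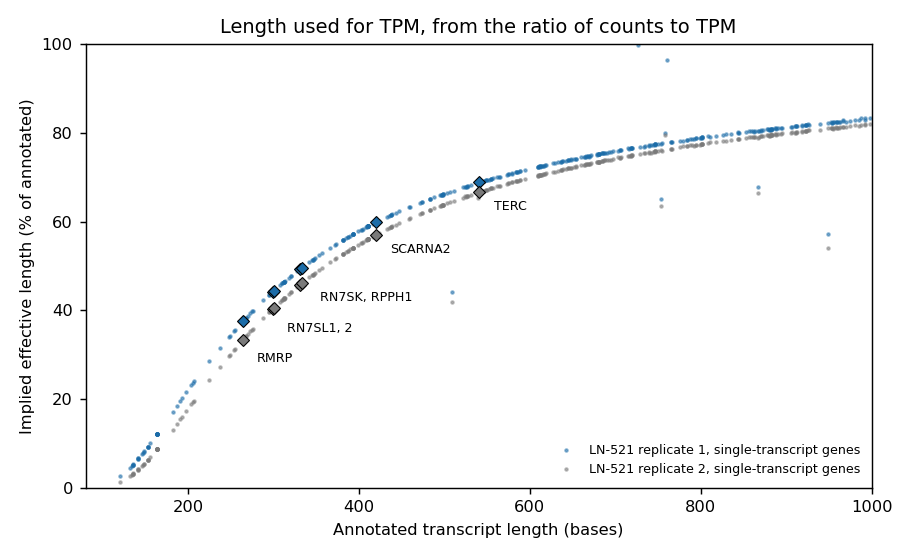
Each point is a single-transcript gene with at least 20 counts, with its annotated length in bases on the x axis and the length implied by its count and TPM, in percent of that, on the y axis, for 2 LN-521 libraries; the few genes above 100% are not drawn, and diamonds are the detected members. RMRP lies lowest of the members (33.3 and 37.5%) and TERC highest (66.6 and 68.8%), and replicate 1 lies above replicate 2 at each.

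Between the coatings, none of the 7 members that passed the filter on low counts was called different. The test was edgeR's quasi-likelihood test with Benjamini-Hochberg adjustment over 17608 genes at a threshold of 0.05, which called 2.53% of all genes (1.4% higher and 1.14% lower on LN-521+LN-221). At an unadjusted p under 0.05, 1 member (RMRP) passed, where 14.5% of all genes tested did, and DESeq2 also called 0. That count of 1 was 5 without LN-521 replicate 1, 4 with no filter beyond 1 count, 3 with the replicate block and 0 without LN-521 replicate 2. The 14.5% holds for the main fit only, and shares over all genes in these other fits are not given here. None of the 7, each read from the row with its symbol, had CPM that did not overlap between the coatings, as 19.9% of all genes did. VTRNA1-1, at 0, could not be tested. All 7 fitted log2 fold changes (LN-521+LN-221 over LN-521) were below 0, against a median of -0.0011 over all genes. This common sign did not hold throughout. RN7SK and RPPH1 were above 0 on log2(TPM + 1) (0.0025 and 0.023), where the median over all genes was 0.035. With the TPM total taken without the members they were at -0.045 and -0.025. RN7SL2, RPPH1 and SCARNA2 were above 0 without LN-521 replicate 2.

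RN7SL1 stood at 24766, 31681 and 28546 CPM on LN-521 against 23531, 25231 and 27680 CPM on LN-521+LN-221. Its log2 fold change was -0.15 ± 0.090 (SE), with a 95% interval from -0.36 to 0.052 and an adjusted p of 0.505 in edgeR. It was -0.063 without LN-521 replicate 2, -0.097 without LN-521+LN-221 replicate 1 and -0.24 without LN-521 replicate 1. For RN7SL2, at 19570, 28723 and 24237 CPM against 20122, 21608 and 24019 CPM, it was -0.14 ± 0.16 (SE; adjusted p = 0.780, edgeR). Since reads can move between these genes, their sum was fitted as 1 feature and gave -0.15 ± 0.13 (SE; adjusted p = 0.681, edgeR). The interval for RN7SL1 spans a fall and a small rise, so the data do not show that 7SL was the same on both coatings.

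RN7SK differed by -0.064 ± 0.058 (SE), with a 95% interval from -0.19 to 0.059 (adjusted p = 0.679, edgeR). RPPH1 differed by -0.045 ± 0.063, with an interval from -0.18 to 0.088 (adjusted p = 0.809, edgeR). These were the narrowest intervals among the members.

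RMRP, at 2229, 2798 and 2344 CPM on LN-521 against 2010, 2109 and 2302 CPM on LN-521+LN-221, differed by -0.20 ± 0.079 (SE; unadjusted p = 0.0271, adjusted p = 0.263, edgeR). Among the settings run, the difference passed in 1, in which genes with as little as 1 count were kept (-0.21, adjusted p = 0.00699, edgeR). Over all 19 settings its log2 fold change stayed between -0.26 and -0.093, with adjusted p from 0.00699 to 0.847.

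TERC differed by -0.29 ± 0.14 (SE; unadjusted p = 0.0547, adjusted p = 0.358, edgeR), from 15.6 ± 2.77 CPM on LN-521 against 12.8 ± 2.20 CPM on LN-521+LN-221 (SD over n = 3 libraries each). Summed with its second gene, a combination chosen after the values were seen, it was -0.26 ± 0.069 (SE; unadjusted p = 0.00152), which missed the threshold at an adjusted p of 0.0559 in edgeR. The summed counts were 1838, 2132 and 1717 on LN-521 against 1367, 1437 and 1447 on LN-521+LN-221. The log2 fold change of TERC itself was -0.15 without LN-521+LN-221 replicate 3 and -0.13 without LN-521 replicate 2. SCARNA2 differed by -0.13 ± 0.11 (SE; adjusted p = 0.670, edgeR).

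**Figure D4:**
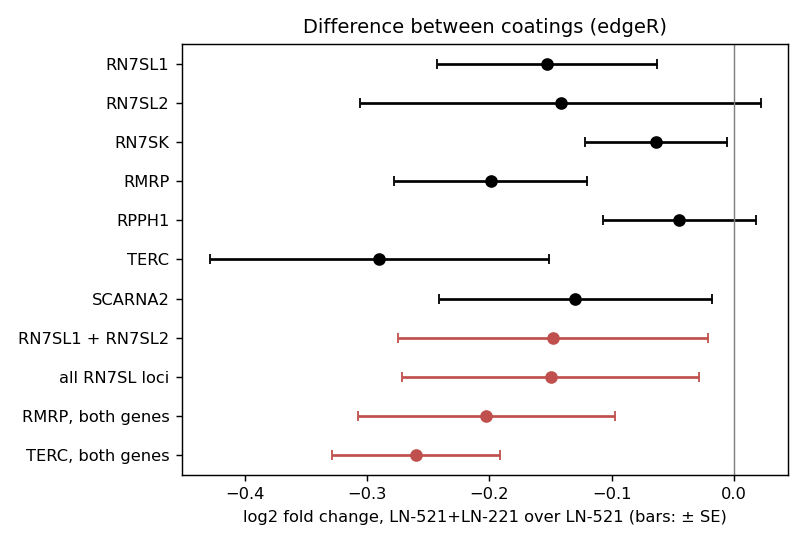
Points give edgeR's log2 fold change of LN-521+LN-221 over LN-521 with bars of ± SE, for the 7 tested members (black) and for features summed over loci that share sequence or bases (red). All points lie between -0.29 and -0.04, and none passed the adjusted threshold.

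Levels of most members varied together across the 6 libraries. Of the 21 pairs of the 7 members, all had a positive Pearson r of log2(CPM + 1) over the 6 libraries, with a median of 0.895, and 16 kept a positive r without the 2 libraries farthest from the median. Over all pairs of the 10120 genes with a mean of at least 10 CPM, 50.0% had a positive r, the median was 0.00010 and 1.92% reached the members' median. The highest was RN7SL1 with RN7SL2 (r = 0.972, exact permutation p = 0.00556, adjusted over 21 pairs 0.0243; Spearman rho = 0.943, adjusted exact p = 0.05; r = 0.945 without the 2 libraries farthest from the median). These genes share nearly all their bases, so their counts are not independent. RN7SK, which shares no such stretch, still followed RN7SL2 closely (r = 0.934, adjusted exact p = 0.0243; rho = 1.0, adjusted exact p = 0.0194; r = 0.959 without the 2 farthest). SCARNA2 followed RN7SL2 with r = 0.950 (adjusted exact p = 0.0243; rho = 1.0, adjusted exact p = 0.0194; r = 0.993 without the 2 farthest). In all, 13 pairs had an adjusted exact permutation p of r under 0.05, and 11 when shares of the library total replaced TMM-scaled CPM. By Spearman's rho only 3 of the 21 pairs did, the 3 among RN7SL2, RN7SK and SCARNA2.

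None of the 6 pairs with TERC passed, and by Pearson's r over all 6 libraries the lowest was with RN7SK (r = 0.278, exact permutation p = 0.586, adjusted 0.586; rho = 0.657, adjusted exact p = 0.216; r = -0.27 without the 2 farthest). TERC was lowest in LN-521+LN-221 replicate 3, at 10.3 CPM, where each of the other 6 tested members was the highest of its coating. Summed with its second gene, TERC was again lowest there but by less, at 61.1 CPM beside 65.8 and 64.4 CPM in LN-521+LN-221 replicates 1 and 2. Its counts are also the lowest of the detected members, and their part in this was not tested.

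The members' share also followed the library total, a relation examined after the values were seen. Within LN-521, the 8 genes took 6.27, 7.23 and 8.05% at totals of 22669605, 24953702 and 26836727 counts. Within LN-521+LN-221 they took 6.17, 6.46 and 7.01% at 20606494, 22398444 and 24006753 counts. The order of shares was thus the order of totals in each coating. At the closest pair of totals, 22669605 on LN-521 and 22398444 on LN-521+LN-221, the shares were 6.27% and 6.46%. Over all 6 libraries Pearson's r was 0.963 (exact permutation p = 0.00278, adjusted over 10 relations 0.00694) and Spearman's rho 0.943 (exact p = 0.0167, adjusted 0.0417), with r = 0.957 without the 2 libraries farthest from the median total. Taking the members out of the total left r at 0.954.

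RN7SL1 had the closest relation to the total by r (r = 0.987, adjusted exact p = 0.00694; rho = 0.943, adjusted exact p = 0.0417; r = 0.994 without the 2 farthest). RMRP had it by rank (r = 0.937, adjusted exact p = 0.00694; rho = 1.0, adjusted exact p = 0.0278; r = 0.829 without the 2 farthest). By rank, RN7SL1 and RMRP were the only members of the 7 to pass, since RN7SL2 and SCARNA2 had an adjusted exact p of rho of 0.0833, RN7SK of 0.128 and RPPH1 of 0.151. The r of RPPH1 fell from 0.867 to 0.428 without the 2 farthest libraries. TERC passed on neither measure (r = 0.511, exact permutation p = 0.289, adjusted 0.289; rho = 0.486, adjusted exact p = 0.356; r = -0.13 without the 2 farthest). Over all 17608 tested genes the median r of share and total was -0.076, and 1.95% had an r of at least 0.9. The 3 LN-521+LN-221 libraries include the 2 smallest totals, so coating and total overlap in part, and the part of the total in the difference between coatings was not tested.

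**Figure D5:**
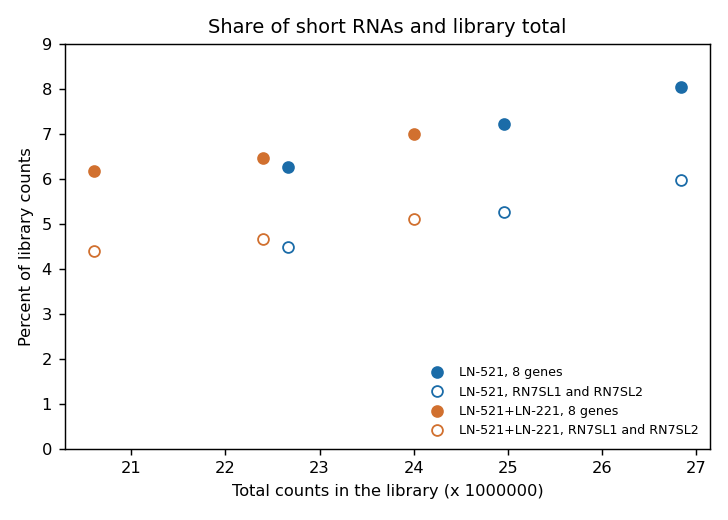
Each point is 1 library, with its total counts on the x axis and the percent of counts held by all 8 genes (filled) or by RN7SL1 and RN7SL2 (open) on the y axis, coloured by coating. Within each coating the share rises with the total, from 6.17 to 7.01% and from 6.27 to 8.05% for the 8 genes.

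The share of mitochondrially encoded RNA had a negative r with the library total (r = -0.92, adjusted exact permutation p = 0.0238), but r was -0.49 without the 2 farthest libraries and rho did not pass (rho = -0.83, adjusted exact p = 0.0833). This share was 0.387, 0.315 and 0.375% of counts on LN-521 against 0.441, 0.400 and 0.404% on LN-521+LN-221, without overlap between the coatings (exact permutation p = 0.1, the smallest possible here). In TPM the coatings overlapped, at 0.413, 0.294 and 0.369% against 0.474, 0.424 and 0.407% (exact permutation p = 0.2). Of the 15 mitochondrially encoded genes tested, 3 were called higher on LN-521+LN-221, namely MT-CO2 (log2 fold change 0.26 ± 0.053 SE, adjusted p = 0.0105, edgeR) and MT-CO3 (0.21 ± 0.051, adjusted p = 0.0346), subunits of cytochrome c oxidase, and MT-ND3 (0.36 ± 0.089, adjusted p = 0.0374), a subunit of respiratory complex I. All 15 had a log2 fold change above 0 (median 0.315, lowest 0.079), where 50.3% of all genes tested were below 0. The 3 calls did not hold without certain single libraries (adjusted p up to 0.0872, 0.221 and 0.200). These genes hold too few counts for their removal from the total to move the members' share by much (the difference was -0.64 points with and without them).

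The genes whose levels followed each member most closely were sought among 10034 genes with a symbol and a mean of at least 10 CPM, by Pearson's r of log2(CPM + 1) over the 6 libraries. They included ENO1 for RN7SL1 (r of 0.995), POLRMT and SMG5 for RN7SL2 (0.998 and 0.997) and RANGAP1 for RN7SK (0.994). For the ribozymes they were TRPT1 and SH3BP1 for RMRP (0.998 and 0.996) and TLE5 and TMEM219 for RPPH1 (0.994 and 0.993). BRMS1 and RCOR2 were most like SCARNA2 (0.995 and 0.994), and SLC31A1 and CXXC5 most like TERC (0.987 and 0.981). All 12 genes named here are protein-coding, and with 6 libraries and so many candidates these r values describe the search only. ENO1, a glycolytic enzyme gene, ran at 2217, 2538 and 2424 CPM on LN-521 against 2144, 2247 and 2341 CPM on LN-521+LN-221, the same order as RN7SL1.

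The protein partners of these RNAs were read from the same edgeR fit, in lists of known roles. None of the 8 SRP proteins and receptors was called, with a median log2 fold change of 0.061. SRP14, which binds the Alu end of 7SL, was at 123, 119 and 136 CPM on LN-521 against 137, 141 and 138 CPM on LN-521+LN-221, just without overlap, as were 19.9% of all genes (0.14 ± 0.059 SE, adjusted p = 0.292). SRP54, which binds the signal peptide, differed by 0.079 ± 0.058 and the receptor subunit SRPRB by 0.015 ± 0.079 (adjusted p = 0.583 and 0.956). None of the 7 genes of the 7SK particle and P-TEFb was called either, with a median of 0.044. LARP7, which holds the 3′ end of 7SK, differed by 0.12 ± 0.065, MEPCE, which caps its 5′ end, by -0.11 ± 0.069 (without overlap), and HEXIM1 by 0.044 ± 0.074 (adjusted p = 0.434, 0.524 and 0.843).

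Proteins of the ribozymes, telomerase and Cajal bodies were likewise not called. The 11 RNase MRP and RNase P proteins had a median of -0.020, with POP1 at 0.047 ± 0.091 SE, POP4 at -0.15 ± 0.088 (without overlap) and RPP25 at -0.020 ± 0.089. Of the 9 telomerase and box H/ACA proteins (median -0.0017), TERT, the reverse transcriptase that uses TERC, was at 16.6, 22.3 and 19.1 CPM on LN-521 against 16.9, 17.3 and 17.0 CPM on LN-521+LN-221 (-0.18 ± 0.10 SE, adjusted p = 0.450). DKC1, the pseudouridine synthase that stabilises TERC, differed by -0.084 ± 0.054 without overlap between the coatings (adjusted p = 0.519). Among the 5 Cajal body proteins (median 0.017), WRAP53, which brings TERC and the scaRNAs to Cajal bodies, differed by 0.050 ± 0.092 and COIL, the coilin gene, by -0.018 ± 0.064. The 3 vault proteins had a median of -0.022.

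The 30 genes of RNA polymerase III and its factors had a median of -0.025 and no call, with 5 at an unadjusted p under 0.05, a share close to the 14.5% of all genes. POLR3G, the polymerase III subunit typical of pluripotent cells, was at 118, 94.1 and 109 CPM on LN-521 against 97.5, 96.8 and 85.8 CPM on LN-521+LN-221 (-0.20 ± 0.077 SE, unadjusted p = 0.0203, adjusted p = 0.232, edgeR). With each of the 6 libraries left out in turn, its adjusted p ran from 0.0113 to 0.588, so the call depends on the library left out. Its paralogue POLR3GL differed by 0.15 ± 0.14 from a mean of 5.59 CPM on LN-521. The polymerase III repressor MAF1 differed by -0.026 ± 0.066 and SSB, the La protein that binds new polymerase III transcripts, by 0.038 ± 0.062.

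Among other short RNAs no gene was called. Of 525 snoRNA genes, 36 passed the filter, and 32 of these had a log2 fold change below 0, where 50.3% of all genes tested did. Their median was -0.26, and 2 of the 36 had an unadjusted p under 0.05 (edgeR), where 14.5% of all genes did. Of 27 spliceosomal snRNA genes 16 were tested, with 12 below 0, a median of -0.43 and 0 at an unadjusted p under 0.05. Of 24 other scaRNAs 8 were tested, with 3 below 0, a median of 0.11 and 3 at an unadjusted p under 0.05. The summed level of short-RNA genes under 160 bases was highest in LN-521 replicate 1. The part of that library in these medians was not tested. The 12 tested loci related to 7SL and 7SK had a median of -0.074 and a range from -0.36 to 1.33.

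In all, 176 of the 1689 genes in the lists were tested and 7 were called (3.98%, beside 2.53% of all genes tested), the 3 mitochondrial genes above and 4 of the 10 pluripotent markers. NANOG fell from 107 ± 10.3 to 64.5 ± 7.93 CPM (-0.73 ± 0.087 SE, adjusted p = 0.000165), TDGF1 fell by 0.65 ± 0.061 on the log2 scale (adjusted p = 8.2e-06) and POU5F1 by 0.36 ± 0.064 (adjusted p = 0.00366), while LIN28A rose by 0.23 ± 0.046 (adjusted p = 0.00737, all edgeR). SOX2 differed by 0.074 ± 0.054 (adjusted p = 0.577). The calls for POU5F1 and LIN28A did not hold in every set with 1 library left out (adjusted p up to 0.0508 and 0.112). These changes stand beside members of which none was called.

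Because TPM has a fixed total, the members set what is left for every other gene. The other genes shared 60.8, 52.7 and 56.6% of TPM on LN-521 against 59.3, 58.6 and 57.6% on LN-521+LN-221, so a gene with an equal part of the remainder would differ between LN-521 replicates 1 and 2 by the ratio of 60.8 to 52.7. The median within-group SD of log2(TPM + 1) was 0.152 on LN-521 against 0.105 on LN-521+LN-221. With the members taken out and the rest scaled back to the same total, it was 0.133 and 0.110.

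The calls on TPM depended on this and on the genes tested. Limma on log2(TPM + 1) as deposited called 33 of 14428 genes, 27 higher and 6 lower on LN-521+LN-221, with a median log2 difference of 0.035 over all genes. After rescaling without the members the same filter (1 TPM in 3 libraries) let in 16032 genes, and limma called 3, 1 higher and 2 lower, with a median of -0.0078. On the 14421 genes tested in both, a comparison added after seeing the data, rescaled TPM gave 32 calls, 19 higher and 13 lower, with a median of -0.0074. On the same genes the number of calls thus hardly moved, while the split went from 27 of 33 higher to 19 of 32 higher. Rescaling multiplies every gene of a library by the same factor, so this change of split goes with the shift of the median. Without LN-521 replicate 2, limma called 0 genes in both forms (1162 as deposited and 1588 rescaled at an unadjusted p under 0.05), and without LN-521 replicate 1 it called 64 of 14213 as deposited, 60 of them higher, and 1 of 15737 rescaled. As these last counts rest on different sets of genes, they do not show an effect of the rescaling.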

How the data were processed

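The authors deposited gene tables of estimated counts (6.08 to 6.67% of values not whole) and of TPM for 6 libraries, read in pairs of 150 bases. The submitters' processing notes list cutadapt, STAR 2.5.2b, RSEM 1.2.31 and hg38. The annotation release, and whether counting used strand, are not given in the sources used here. Symbols were matched through a gene table. RN7SK's current ID was not among the files' IDs, so the ID at the same locus and strand (at least 90% reciprocal overlap) was used. Coordinates, lengths and sequences are from GENCODE 29, which held 93.8% of the IDs.

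Estimated counts were rounded and tested with edgeR 4.0.16 (R 4.3.3; filterByExpr, TMM scaling, robust quasi-likelihood fit), with limma 3.58.1 and DESeq2 1.42.0 as alternatives. CPM are TMM-scaled, except for the cell type markers, the limit for a count of 0 and the short-RNA genes by length, which are per unscaled library total. The fit had a common biological coefficient of variation of 7.03%. Scripts were tested on simulated data. The members, the lists and the rule for named genes (the 8 members, fixed partners, called genes of the lists and the 2 genes most like each member) were chosen with earlier results of these data known. Replicate numbers 1 to 3 recur in both groups, and the labels state no pairing between them. Sequences of 7SL and 2 of the genes most like a member are not reported here.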

Additional observations from a re-analysis of the deposited data

How the results depend on the processing

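The replicate block left every member uncalled and moved the calls over all genes from 446 to 646 (442 shared) and those in the companion lists from 7 to 12. Deviations of same-numbered wells had an r of 0.088, -0.046 and -0.031. The labels state no pairing, and these values alone cannot decide whether wells were paired. Keeping all genes with 1 count called 1 member (RMRP). Log2 fold changes turned positive for RN7SK (0.0025 on log2(TPM + 1) and on log2(TPM + 0.1)) and RPPH1 (0.023 on both). The median over all genes was 0.035 and 0.039 on these scales, in that order. Without LN-521 replicate 2 the fold changes turned positive for RN7SL2 (0.0028), RPPH1 (0.038) and SCARNA2 (0.023), at a median over all genes of 0.0048. The lowest values of RN7SL2, RPPH1 and SCARNA2, all without LN-521 replicate 1, were -0.27, -0.10 and -0.24. With 1 library left out, RN7SL1 ran from -0.24 to -0.063, RN7SK from -0.13 to -0.023, RMRP from -0.26 to -0.093 and TERC from -0.39 to -0.13. The difference in TPM share ran from -3.88 to 0.204 points with 1 library left out, and that in count share from -1.09 to -0.20. The cause of these shifts was not tested, but leaving out a library leaves fewer samples. Calls on deposited TPM were 16 with a pseudocount of 0.1, 1 with no filter, and 0 to 64 with 1 library left out. On rescaled TPM they were 1 with no filter, 0 to 8 with 1 library left out, and 32 on the genes tested in both forms. Of the other settings of single members' fold changes, 78 with all libraries and 39 with 1 left out kept direction and call. TERC had the fewest counts of the detected members (245 to 498), and VTRNA1-1 was listed at 0 throughout.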
